A study of Homo sapiens with 8 samples.

Results

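The genes of the 3 classical collagen VI chains, COL6A1, COL6A2 and COL6A3, were examined in poly(A) RNA sequencing of the ovarian cancer cell line UWB1.289. They were taken by name from a table of 25369 named genes, and all 3 were found. COL6A1 and COL6A2 were selected on the difference between the 2 lines in these same libraries, so that difference is given as a description, with no test. UWB1.289 carries a BRCA1 mutation and is called BRCA1-null, and the line transduced with wild-type BRCA1 is called BRCA1+. Each line received the vehicle DMSO or 0.5 uM entinostat, an inhibitor of class I histone deacetylases, for 24 h, which gave 4 groups of 2 libraries. Each BRCA1 state is 1 line, so BRCA1 status and any other difference between the lines cannot be told apart. Nothing in the labels says that the 2 libraries of a group came from separate cultures, so the p-values measure the spread between these libraries, which may be technical.

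Collagen VI is a matrix protein of the space around cells. One chain of each kind folds into a triple helix, the helices pair and stack inside the cell, and after secretion they join end to end into beaded microfilaments that connect cells with basement membranes and larger collagen fibres. The usual trimer needs the chain of COL6A3, in whose place a chain of the COL6A4, COL6A5 and COL6A6 kind may stand. Fibroblasts and other stromal cells are its best known source, and carcinoma cells can make it as well.

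Total counts per library ranged from 31900158 to 53549893, and the upper limit allowed by a count of 0, which is 3 counts, came to 0.0552 to 0.0946 CPM. CPM is the usual depth-scaled count, here with effective library sizes. Floors and intervals on counts cover counting error alone. BRCA1 was measured at 92.3 to 133 CPM in the 4 BRCA1+ libraries and at 17.6 to 22.4 CPM in the 4 BRCA1-null libraries, in the direction of the labels. Among the epithelial carcinoma markers (EPCAM, KRT7, KRT8, KRT18, KRT19, CDH1, PAX8, WT1 and MUC16) no gene lay at or under the floor in both libraries of a group. Their summed level was 13997 to 18433 CPM, most of it from KRT7, KRT8 and KRT18. WT1 was near the floor in BRCA1-null cells with DMSO, with 4 and 1 counts against 20 and 13 in BRCA1+ cells. With DMSO 4 of the 9 markers were called between the lines, beside 42.2% of all tested genes. In BRCA1-null cells KRT8 was higher, and KRT7, CDH1 and WT1 were lower. Of 25369 genes, 17714 passed the filter on low counts, COL6A1 and COL6A2 among them. COL6A3 did not pass.

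COL6A1 and COL6A2 lie next to each other on chromosome 21 of hg19 and are read from the same strand (plus). COL6A1 spans chr21:47401663-47424963 and COL6A2 chr21:47518033-47552763, and the table holds no other gene between them and none that overlaps either. COL6A3 lies on the minus strand of chromosome 2, at chr2:238232655-238322850, and is likewise overlapped by no other gene of the table. The bases before the transcription start, from RefSeq on GRCh38.p14, were found for 2 of the 3 genes, COL6A2 and COL6A3, and are shown because one was abundant and the other near the floor in BRCA1-null cells. They run 250 bases up to the start, 5′ to 3′ on the strand of the gene, for COL6A2 at chr21:46097862-46098111 (plus strand) and for COL6A3 at chr2:237414165-237414414 (minus strand). Capitals mark a GC box (GGGCGG or its reverse complement CCGCCC) or a TATA motif (TATAAA or TTTATA), searched on both strands.
COL6A2: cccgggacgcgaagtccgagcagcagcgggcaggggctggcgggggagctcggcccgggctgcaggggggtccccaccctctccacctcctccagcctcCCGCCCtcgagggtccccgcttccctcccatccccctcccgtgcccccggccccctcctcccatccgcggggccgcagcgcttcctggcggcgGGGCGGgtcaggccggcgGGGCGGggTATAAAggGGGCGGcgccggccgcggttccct
COL6A3: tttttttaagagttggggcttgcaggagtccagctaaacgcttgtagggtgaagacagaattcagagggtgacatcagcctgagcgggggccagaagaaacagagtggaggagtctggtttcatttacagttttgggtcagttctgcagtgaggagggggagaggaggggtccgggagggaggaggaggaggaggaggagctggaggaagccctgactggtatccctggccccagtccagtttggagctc
The COL6A2 stretch held 4 GC boxes, which began 151, 58, 40 and 24 bases before the start, and 1 TATA motif, which began 32 bases before it and touched neither neighbouring GC box. The COL6A3 stretch held neither motif. A GC box was present in 42.6% and a TATA motif in 10.7% of the same 250 bases of 35116 RefSeq promoters. COL6A2 had 28 CpG sites, more than 84.1% of those promoters, and COL6A3 had 3, more than 22.9%, with a median of 11. The share of G and C bases was 79.6% for COL6A2, 56.0% for COL6A3 and 58.0% at the median. A match describes the letters only, and no match says nothing of the factor.

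The chains of COL6A1 and COL6A2 were abundant in BRCA1-null cells and scarce in BRCA1+ cells. COL6A1 had 41 and 41 counts in BRCA1+ cells with DMSO and 21 and 29 with entinostat. In BRCA1-null cells it had 8138 and 8033 counts with DMSO and 7350 and 5759 with entinostat. All 4 BRCA1-null libraries thus stood far above all 4 BRCA1+ libraries. The levels were 0.959 ± 0.0935 and 0.644 ± 0.0263 CPM in BRCA1+ cells and 163 ± 22.0 and 147 ± 13.3 CPM in BRCA1-null cells, DMSO before entinostat (mean ± SD, n = 2). On the log2 scale the fitted difference, BRCA1-null minus BRCA1+, was 7.41 ± 0.17 (SE) with DMSO, or 170-fold, and 7.84 ± 0.18 with entinostat, or 229-fold.

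COL6A2 followed the same course. Its counts were 29 and 32 in BRCA1+ cells with DMSO, 24 and 23 with entinostat, 6516 and 7889 in BRCA1-null cells with DMSO and 7334 and 6102 with entinostat. Again no BRCA1+ library came near a BRCA1-null library. The levels were 0.711 ± 0.0199 and 0.626 ± 0.185 CPM in BRCA1+ cells and 144 ± 1.37 and 151 ± 7.30 CPM in BRCA1-null cells, DMSO before entinostat. The fitted difference was 7.66 ± 0.12 with DMSO, or 202-fold, and 7.96 ± 0.12 with entinostat, or 250-fold. Ranked from the largest increase in BRCA1-null cells with DMSO, COL6A2 was number 1 and COL6A1 number 2 of the 10390 tested genes whose mean log2 CPM reached 3. A smaller share of expressing cells and less RNA per cell cannot be told apart in these bulk libraries.

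COL6A3 was close to the floor everywhere. It had 1 and 1 counts in BRCA1+ cells with DMSO, 0 and 1 with entinostat, 5 and 5 in BRCA1-null cells with DMSO and 6 and 10 with entinostat. The BRCA1+ libraries lay under the floor of 3 counts and the BRCA1-null libraries slightly over it. The ratio of scaled counts, BRCA1-null over BRCA1+, was 4.30 with DMSO (exact 95% interval 0.916 to 40.4, 10 against 2 counts) and 14.1 with entinostat (2.19 to 591, 16 against 1). These intervals cover counting error only and are wide, and the entinostat ratio was 8.37 without BRCA1+ entinostat replicate 1, 9.99 without BRCA1-null entinostat replicate 2 and 18.7 without BRCA1-null entinostat replicate 1.

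**Figure D1:**
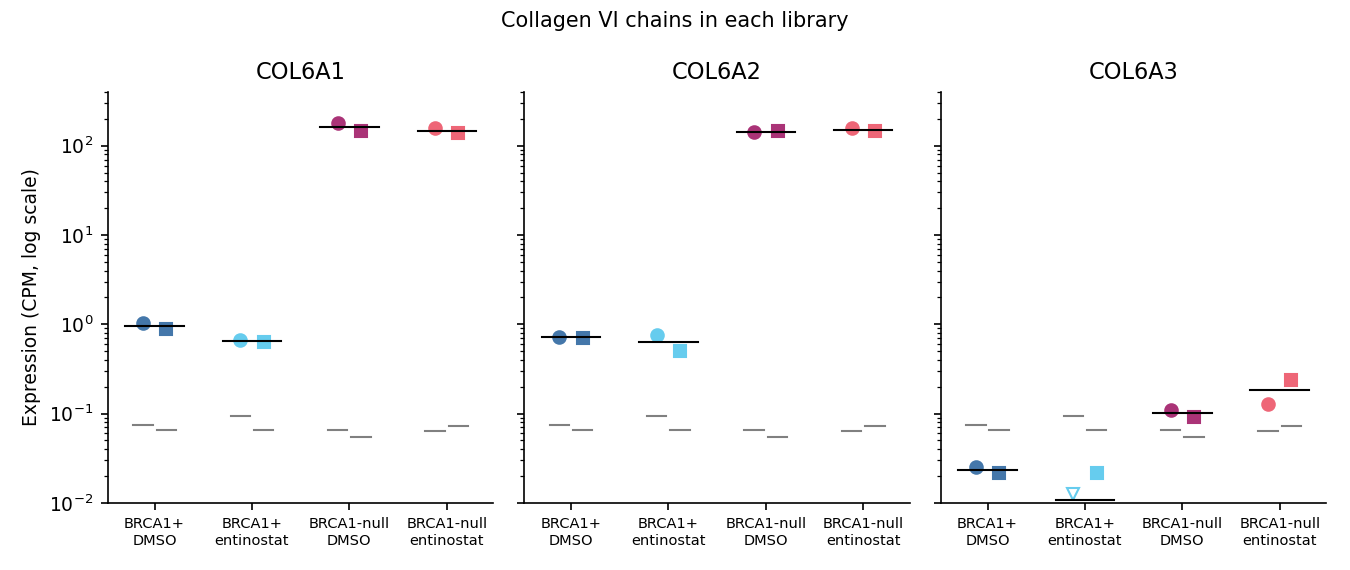
Each panel plots 1 collagen VI chain gene, with the level in CPM on a log axis for the 4 groups of 2 libraries (circle, replicate 1, and square, replicate 2). Black lines are group means, grey lines the level of 3 counts in each library, and the open triangle a library with 0 counts, placed near the bottom of the axis; COL6A1 and COL6A2 sat at 138 to 179 CPM in BRCA1-null libraries and at or below 1.03 CPM in BRCA1+ libraries, and COL6A3 reached at most 0.239 CPM.

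Per kilobase of gene length the 3 chains were far from equal. In RPKM (CPM divided by the gene length in kilobases), COL6A1 and COL6A2 averaged 38.6 and 33.2 in BRCA1-null cells with DMSO and 34.9 and 34.8 with entinostat. In BRCA1+ cells they averaged 0.227 and 0.164 with DMSO and 0.152 and 0.144 with entinostat. By this level COL6A1 ranked 2231 and COL6A2 2575 of 17714 genes in BRCA1-null cells with DMSO, against 15280 and 15732 in BRCA1+ cells with DMSO. The ratio of COL6A1 to COL6A2 per library was 1.28, 1.05, 1.03 and 0.970 in BRCA1-null cells and 1.45, 1.32, 0.899 and 1.30 in BRCA1+ cells, so the lines overlapped. The ratio of COL6A1 to COL6A3 was 4120 and 4067 in BRCA1-null cells with DMSO and 3101 and 1458 with entinostat, and it rests on 5 to 10 counts of COL6A3 per library. In BRCA1-null cells with DMSO both COL6A1 libraries (42.3 and 35.0 RPKM) lay above both COL6A2 libraries (33.0 and 33.4). With entinostat the 2 genes overlapped (32.6 to 37.1 RPKM for COL6A1, 33.6 to 36.0 for COL6A2), and COL6A3 was far below in every BRCA1-null library.

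The chains that can stand in the place of the COL6A3 chain were scarce as well. COL6A5 had 0 to 1 counts in BRCA1+ libraries and 0, 2, 8 and 2 in BRCA1-null libraries, and COL6A6 had 1 to 4 counts in all 8. COL6A4 is split in humans into the pseudogenes COL6A4P1 and COL6A4P2. COL6A4P1 had 0 counts in all 4 BRCA1+ libraries and 3, 4, 8 and 7 in BRCA1-null libraries, and COL6A4P2 had 4 to 9 counts in BRCA1+ and 10 to 24 in BRCA1-null libraries. COL6A4P2 alone of these genes passed the filter, and its log2 line difference with DMSO was 1.39 (adjusted p = 0.053, edgeR quasi-likelihood test). How reads with several positions were counted is not given in the sources used here, so the pseudogene counts are uncertain.

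No effect of entinostat on COL6A1 or COL6A2 passed the test in either line. This treatment contrast played no part in the selection of the genes and was tested with edgeR's quasi-likelihood test over all 17714 genes. In BRCA1-null cells the 2 COL6A1 libraries were at 179 and 148 CPM with DMSO and at 157 and 138 CPM with entinostat. The groups overlapped, though both same-numbered pairs were lower with entinostat. The log2 change was −0.15 ± 0.09 (95% interval −0.36 to 0.07, adjusted p = 0.357), a fold of 0.779 to 1.05. For COL6A2 the libraries were at 143 and 145 CPM with DMSO and 156 and 146 CPM with entinostat, and the log2 change was 0.07 ± 0.06 (−0.08 to 0.21, adjusted p = 0.537), a fold of 0.949 to 1.16. Its 2 groups were separate by a small margin. In BRCA1+ cells, where the counts were low, the intervals were wider. The log2 change of COL6A1 was −0.57 ± 0.39 (−1.46 to 0.31, adjusted p = 0.385), and that of COL6A2 −0.24 ± 0.29 (−0.89 to 0.42, adjusted p = 0.654), with libraries at 0.725 and 0.697 CPM before and 0.757 and 0.496 CPM after treatment. The COL6A2 value in BRCA1+ cells turned to 0.087 without BRCA1+ entinostat replicate 2.

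Whether the response differed between the lines was tested by the interaction, the change in BRCA1-null minus that in BRCA1+ cells. It was 0.43 ± 0.41 for COL6A1 (−0.49 to 1.34, adjusted p = 0.973) and 0.31 ± 0.30 for COL6A2 (−0.37 to 0.98, adjusted p = 0.975). The value of COL6A2 was −0.025 without BRCA1+ entinostat replicate 2. Over all 17714 tested genes edgeR called 0 interactions (0%). An unadjusted p under 0.05 was reached by 827, below the share of 0.05 that passes when no gene differs. COL6A3 in BRCA1-null cells had a count ratio of entinostat over DMSO of 1.80 (0.769 to 4.44, 16 against 10 counts), and in BRCA1+ cells both groups were under the floor.

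**Figure D2:**
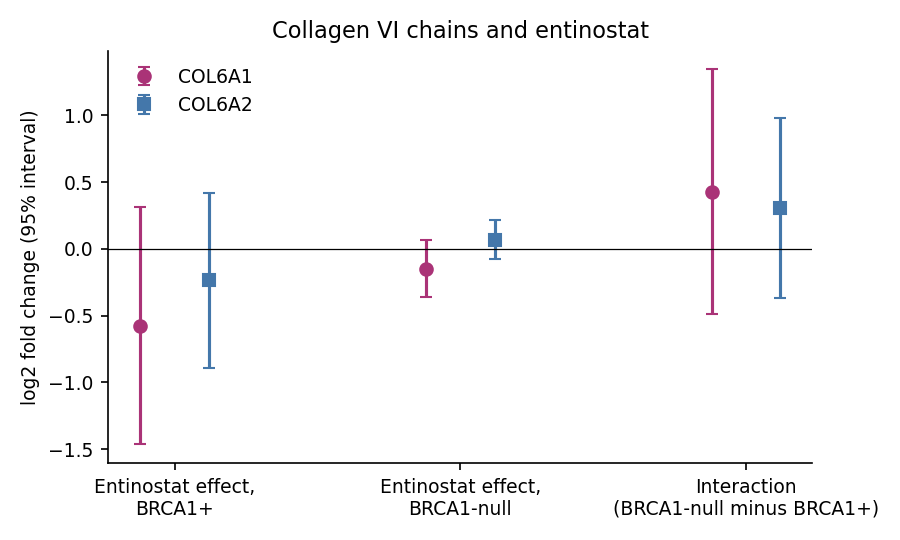
Points are log2 fold changes of COL6A1 (circles) and COL6A2 (squares) with entinostat in each line, and the interaction, from the edgeR fit on 8 libraries; bars are 95% intervals. All 6 intervals include 0, and those in BRCA1-null cells, where counts were high, are the narrowest.

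Neighbouring genes were examined to see whether the difference between the lines extended along the chromosome. With DMSO, 42.2% of all tested genes were called, with 21.1% above and 21% below BRCA1+ in BRCA1-null cells and a median log2 difference of 0.01. Of the 20 nearest tested genes around COL6A1 and COL6A2, 10 on each side, 7 were called, 4 higher and 3 lower, with a median of −0.08. This share is below that of all genes. Over the whole of chromosome 21, without the chains, 73 of 175 tested genes were called, of which 52 were higher and 21 lower, with a median of 0.10. The higher genes made up 29.7% of the 175, above the 21.1% of all tested genes, and the share lower was under the 21% of all. These differences in share were not tested. The count of 7 among the 20 neighbours fell to 3 without either BRCA1+ DMSO replicate and to 4 without either BRCA1-null DMSO replicate.

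The genes directly beside the pair were low, and both had more counts in BRCA1-null cells with DMSO. LOC101928796, an uncharacterised gene at chr21:47392884-47394867, ends 6.80 kb before COL6A1 and had 0 counts in all 4 BRCA1+ libraries and 12, 7, 44 and 17 in BRCA1-null libraries. Its mean level in BRCA1-null cells was 2.80 times the floor of 3 counts in BRCA1+ libraries with DMSO and 8.45 times with entinostat (adjusted p with DMSO 0.0458). These values leave out the counting error of the BRCA1-null libraries themselves. The call with DMSO was lost, at an adjusted p of 0.051 to 0.144, when any 1 of 6 libraries was left out: either BRCA1+ DMSO, either BRCA1+ entinostat or either BRCA1-null DMSO replicate. FTCD, an enzyme of histidine and folate metabolism at chr21:47556176-47575481, starts 3.41 kb after COL6A2. Its counts were 2, 1, 1 and 8 in BRCA1+ libraries and 9, 17, 17 and 5 in BRCA1-null libraries, so the lines overlapped once entinostat was added. With DMSO the log2 difference of FTCD was 2.80 ± 0.88 (adjusted p = 0.0255), and it was not called without BRCA1+ DMSO replicate 1 (0.0869), BRCA1+ DMSO replicate 2 (0.179) or BRCA1-null DMSO replicate 2 (0.13), nor by DESeq2 (0.102).

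Further out no tested gene differed by as much. PCBP3, which lies 39.3 kb before COL6A1 and encodes an RNA-binding protein, had at most 2 counts in any library and was not tested. SPATC1L, 28.3 kb after COL6A2, had 544 and 640 counts in BRCA1+ and 602 and 693 in BRCA1-null cells with DMSO, a log2 difference of −0.09 ± 0.11 (adjusted p = 0.564). SLC19A1, the reduced folate carrier, lies 439 kb before COL6A1 and differed by 0.15 ± 0.09 (adjusted p = 0.196). The largest decrease of the region was that of LSS, lanosterol synthase of the cholesterol pathway, 55.6 kb after COL6A2, with 5295 and 5272 counts in BRCA1+ and 3305 and 4530 in BRCA1-null cells (log2 −0.66 ± 0.09, adjusted p = 4.09e-04). Some of the neighbours overlap each other on the chromosome, and the treatment of strand and of shared reads in the counting is not given in the sources used here, so their values are uncertain.

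Around COL6A3, 7 of the 20 nearest tested genes were called with DMSO, 4 higher and 3 lower, with a median of −0.08. On the whole of chromosome 2, 476 of 1198 tested genes were called, of which 159 were higher and 317 lower, with a median of −0.10. The share called was 39.7% on the chromosome and lower still around COL6A3, both below the 42.2% of all tested genes. By direction, 13.3% of the chromosome's tested genes were higher and 26.5% lower, beside 21.1% and 21% of all. These differences in share were not tested. MLPH, melanophilin, a linker of melanosomes to the cytoskeleton 72.2 kb from COL6A3, had 12 and 5 counts in BRCA1+ and 92 and 135 in BRCA1-null cells with DMSO, with no overlap. Its log2 difference of 3.50 ± 0.39 was the largest of this region (adjusted p = 1.24e-04). RAB17, a small GTPase of epithelial membrane traffic 160 kb away, differed by 0.31 ± 0.09 (adjusted p = 0.0173), a call lost without BRCA1+ DMSO replicate 1 (0.0993) or BRCA1-null DMSO replicate 2 (0.066). On the other side COPS8, a COP9 signalosome subunit, differed by −0.13 ± 0.10 (adjusted p = 0.351), and ACKR3, an atypical chemokine receptor, was lower by −1.89 ± 0.24 (adjusted p = 2.52e-04).

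**Figure D3:**
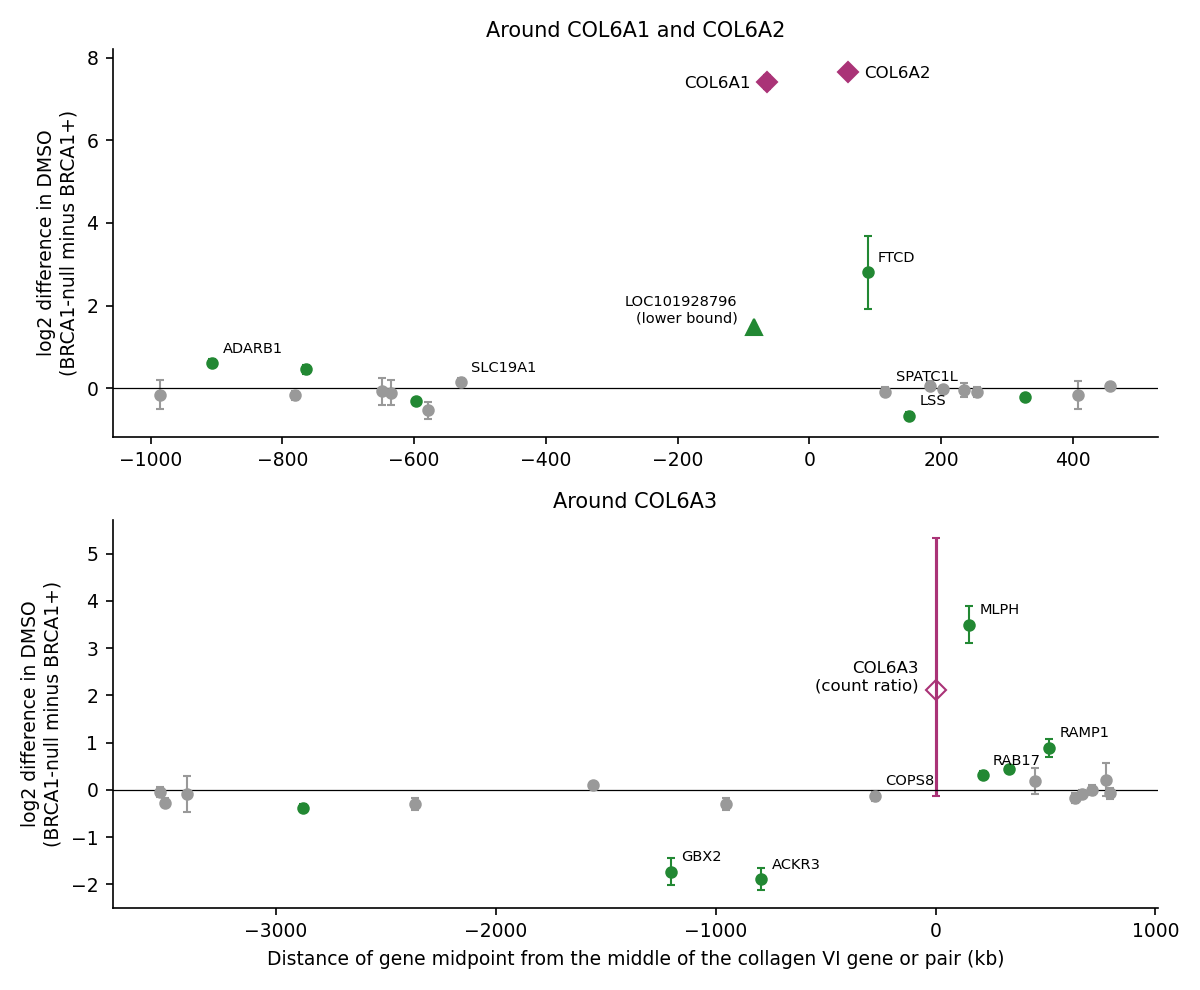
The plots show the log2 difference with DMSO (BRCA1-null minus BRCA1+, bars SE) of the 20 nearest tested genes around COL6A1 and COL6A2 (upper panel) and around COL6A3 (lower panel) against the distance of the gene's midpoint in kb. Green genes were called and grey genes were not, and diamonds are the chains. The triangle, labelled as a lower bound, is the BRCA1-null level of LOC101928796 over the floor, without the error of its own counts. COL6A3 is given as its count ratio with the 95% counting interval. COL6A1 and COL6A2 stood at 7.41 and 7.66. No neighbour more than 10 kb from the pair was higher by more than 0.61, and the largest decrease was −0.66, that of LSS.

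The genes that act with collagen VI were then described by role, as receptors, matrix partners and genes for chain processing, together with the other collagen VI chains. Of 44 such genes 39 were tested, and 20 were called between the lines with DMSO, 14 higher and 6 lower in BRCA1-null cells, with a median of 0.10. As a share this was 51.3%, beside 42.2% of all tested genes. These lists, like those of the cell type markers, were chosen with earlier results of these data known. Their shares and p-values are therefore a description and no independent evidence.

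Of the 11 receptor genes, 7 were higher and 1 was lower in BRCA1-null cells, with a median of 0.51. As shares this was 63.6% and 9.1%, beside 21.1% and 21% of all tested genes. ITGA3, an integrin subunit that binds laminins and has been placed among collagen VI receptors, had 5497 and 4750 counts in BRCA1+ and 25533 and 31083 in BRCA1-null cells with DMSO (log2 2.23 ± 0.13, adjusted p = 3.08e-06). CSPG4, the proteoglycan NG2 that binds collagen VI on the cell surface, had 17 and 16 against 47 and 87 counts (1.79 ± 0.41, adjusted p = 0.00701), a call lost without BRCA1+ DMSO replicate 2 (0.0568) or BRCA1-null DMSO replicate 2 (0.0513). ANTXR1 and ANTXR2, anthrax toxin receptors that bind collagen VI, differed by 0.46 and 1.58. ITGB3, a beta subunit of the vitronectin receptor, was the one lower gene, with 9661 and 10749 against 4086 and 4734 counts (−1.43 ± 0.06, adjusted p = 5.46e-07).

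Of the 13 matrix partners 11 were tested, of which 3 were higher and 1 was lower. The share called, 36.4%, was below the 42.2% of all tested genes, and the share higher was 27.3%, beside 21.1%. BGN, biglycan, a small proteoglycan that binds collagen VI, had 6 and 8 counts in BRCA1+ and 157 and 132 in BRCA1-null cells with DMSO, and 4 and 8 against 271 and 134 with entinostat. The lines did not overlap, and the log2 difference with DMSO was 4.13 ± 0.58 (adjusted p = 4.64e-04). VWF, von Willebrand factor, was higher by 1.20 ± 0.22 (adjusted p = 0.00242), and MFAP2, a microfibril glycoprotein, was lower by −0.95 ± 0.12 (adjusted p = 2.50e-04). DCN, decorin, another small proteoglycan that binds collagen VI, and TNXB had 0 counts in all 8 libraries.

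The 16 genes for chain processing showed no common direction, with 4 higher, 4 lower and a median of −0.004. Both shares were close to the 21.1% and 21% of all tested genes. PLOD3, a lysyl hydroxylase that also glycosylates collagen VI, had 3953 and 3984 counts in BRCA1+ and 8631 and 9937 in BRCA1-null cells (1.01 ± 0.07, adjusted p = 7.93e-06). MMP14, a membrane matrix metalloproteinase, was higher by 0.73 ± 0.10 (adjusted p = 3.51e-04). PLOD2, the lysyl hydroxylase of collagen telopeptides, was lower by −0.83 ± 0.06 (adjusted p = 1.10e-05), and BMP1, a procollagen protease, by −0.91 ± 0.09 (adjusted p = 5.23e-05).

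**Figure D4:**
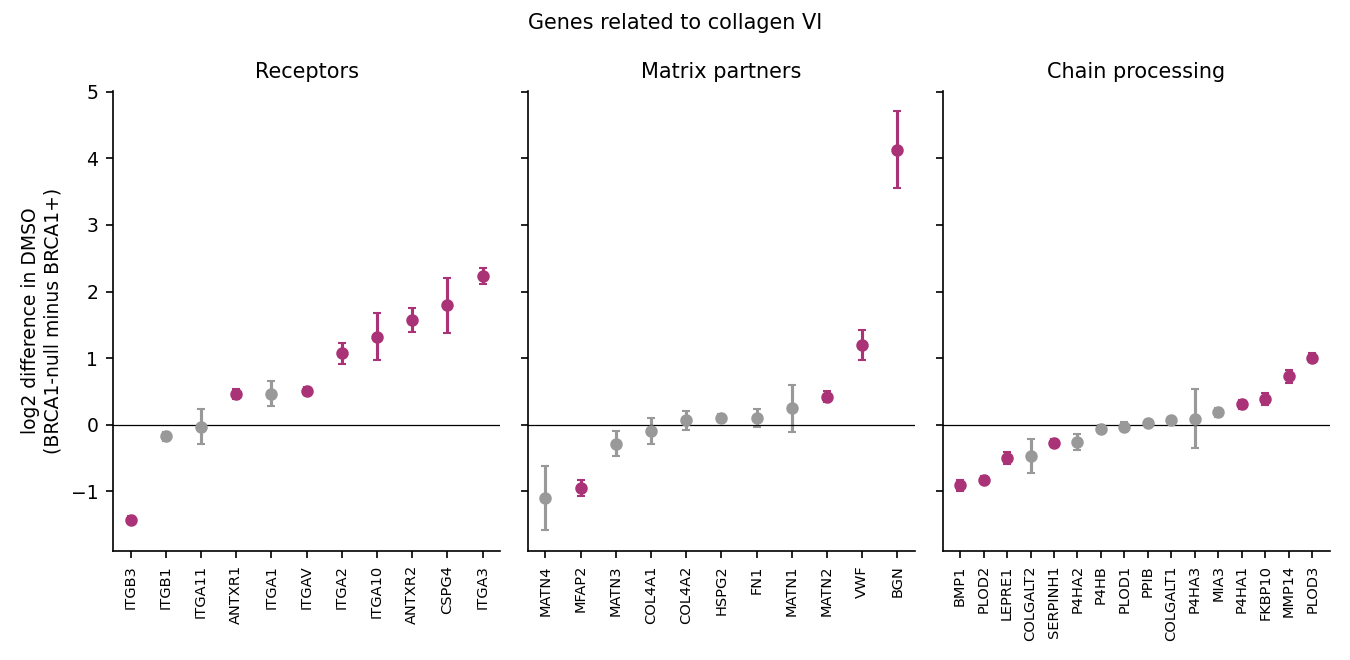
Each point is the log2 difference with DMSO (BRCA1-null minus BRCA1+) of 1 tested gene, with its SE, in order of size within the receptors, the matrix partners and the genes for chain processing; coloured points were called and grey points were not. BGN at 4.13 and ITGA3 at 2.23 stood highest, both below COL6A1 and COL6A2.

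With entinostat several of these genes rose in both lines. In BRCA1+ cells 11 of 39 were called, all higher, beside 14.1% of all tested genes (8.13% higher and 6% lower), and in BRCA1-null cells 9 of 39, all higher, beside 10.8% (7.57% higher and 3.19% lower). The medians were 0.20 and 0.25, against 0.0004 and 0.02 over all genes. The first count fell without either BRCA1+ entinostat replicate, and the second without BRCA1-null DMSO replicate 2. The share of all tested genes called in these reduced fits was not computed. ITGA1, a collagen-binding integrin subunit, had 85 and 119 counts with DMSO and 238 and 290 with entinostat in BRCA1+ cells (1.52 ± 0.17, adjusted p = 0.00115), and 147 and 181 against 508 and 447 in BRCA1-null cells (1.71 ± 0.14, adjusted p = 8.05e-04). ITGB3 rose by 0.71 ± 0.06 and 0.73 ± 0.06 (adjusted p = 3.31e-04 and 8.05e-04), and MFAP2 by 1.20 ± 0.11 and 1.12 ± 0.12 (adjusted p = 4.18e-04 and 0.00153), BRCA1+ before BRCA1-null. MATN3, a matrilin of the kind that links collagen VI to other matrix fibres, rose by 0.77 and 0.81 (adjusted p = 0.0193 and 0.0219), calls that each of the 4 libraries compared ended when left out (adjusted p 0.0559 to 0.121 and 0.075 to 0.0856). In chain processing, PLOD2 was not called in BRCA1+ cells (0.18 ± 0.06, adjusted p = 0.0695). FKBP10 and LEPRE1, which act on collagen folding and prolyl hydroxylation, were not called in BRCA1-null cells (0.31 and 0.23, adjusted p = 0.055 and 0.149). No interaction of the related genes was called. In BRCA1+ cells FKBP10 and LEPRE1 rose by 0.42 and 0.40 (adjusted p = 0.0165 and 0.0198). These calls were lost without BRCA1+ DMSO replicate 2, BRCA1+ entinostat replicate 1 or BRCA1+ entinostat replicate 2 (adjusted p 0.056 to 0.122). In BRCA1-null cells PLOD2 and P4HA1, a prolyl hydroxylase subunit, rose by 0.41 and 0.40 (adjusted p = 0.0048 and 0.00752), and P4HA1 was not called without BRCA1-null DMSO replicate 2 (0.055) or BRCA1-null entinostat replicate 1 (0.054). P4HA1 also rose in BRCA1+ cells, by 0.38 ± 0.07 (adjusted p = 0.00755, and 0.0745 without BRCA1+ entinostat replicate 2), and its interaction was 0.02 ± 0.09 (adjusted p = 0.993).

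Since fibroblasts are the best known source of collagen VI, their markers were read beside the chains. The 10 fibroblast markers (PDGFRA, PDGFRB, THY1, DCN, LUM, COL1A1, COL1A2, COL3A1, FAP and POSTN) had a summed level of 13.7 to 18.4 CPM in BRCA1+ cells with DMSO, 27.7 to 35.7 with entinostat, 39.5 to 56.1 in BRCA1-null cells with DMSO and 58.6 to 84.5 with entinostat. DCN, LUM and COL3A1 were at 0 in all 8 libraries. Of the 5 markers tested with DMSO 3 were higher in BRCA1-null cells, beside 21.1% of all tested genes: THY1 with 18 and 25 against 527 and 517 counts (4.38 ± 0.33, adjusted p = 1.56e-05), COL1A1 by 1.09 ± 0.16 (adjusted p = 6.98e-04) and COL1A2 by 1.33 ± 0.33 (adjusted p = 0.0109). COL1A2 was not called without BRCA1+ DMSO replicate 2 (0.0864) or BRCA1-null DMSO replicate 1 (0.0593). With entinostat THY1 (4.10 ± 0.26, adjusted p = 6.83e-06), COL1A1 (0.44 ± 0.13, adjusted p = 0.0203) and COL1A2 (1.06 ± 0.33, adjusted p = 0.0295) were again higher in BRCA1-null cells. PDGFRA was lower in BRCA1-null than in BRCA1+ cells with entinostat (−1.92 ± 0.59, adjusted p = 0.0224), with 14 and 2 against 12 and 42 counts. The part of these genes in the difference of the chains was not tested.

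The genes whose pattern over the 8 libraries was most like that of COL6A1 were the same 5, in the same order, as for COL6A2. Likeness was the root mean square difference between mean-centred log2 CPM values, taken over 10388 genes whose mean log2 CPM reached 3, and it was 0.23 between COL6A1 and COL6A2 themselves. EHF, an epithelial transcription factor, came first at 1.35 for COL6A1 and 1.40 for COL6A2, with 1.66 CPM in BRCA1+ and 61.5 CPM in BRCA1-null cells with DMSO. It was followed by REC8, a meiotic cohesin subunit, at 1.72 and 1.79, EFNB1, an ephrin ligand, at 1.84 and 1.91, TM4SF1, a membrane protein, at 1.86 and 1.91, and ITGA5, the fibronectin receptor subunit, at 1.92 and 1.96. Their log2 line differences with DMSO ran from 3.93 to 5.22. The measure is dominated by the line difference on which the chains were selected, so these distances, that within the pair included, are a description only. For COL6A3 the nearest were FOSL1, PTP4A3, DKK1, ITGA6 and FRMD3 at 0.46 to 0.51, which rests on 0 to 10 counts per library and depends on the offset of 0.5 in the log2 values.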

How the data were processed

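The authors deposited 1 table of raw counts of reads per gene, made by alignment to hg19 with TopHat 2 and counting with NGSUtils; how strand and reads with several positions were treated is not given in the sources used here. Groups came from the sample titles. Positions, counted from 1, and gene lengths came from the same table. The members and all gene lists were chosen with earlier results of these data known.

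Genes were kept with filterByExpr (17714 of 25369), scaled by TMM and fitted in 1 quasi-likelihood model on all 8 libraries with edgeR 4.0.16 (R 4.3.3); tests were two-sided and genes were called at a Benjamini-Hochberg adjusted p under 0.05. Errors of log2 values are the size of the change divided by the root of F. The fit was checked on simulated counts with the same spread setting for all genes and unlinked libraries. That check did not cover differing spreads or linked replicates. COL6A3 failed the filter, so ratios of summed counts with exact conditional 95% intervals were computed instead. DESeq2 1.42.0, other scalings, filters and prior counts, a replicate block and leaving out each library were alternatives. Named genes were the chains, the nearest 2 genes on each side, the largest called differences, up to 2 called genes a list and direction, and the 5 most similar genes. Further genes were added after their values were seen. These were ANTXR1 and ANTXR2, PCBP3, DCN, TNXB, and the fibroblast and epithelial markers with values. P4HA1 and PLOD2 in BRCA1+ cells and FKBP10 and LEPRE1 in BRCA1-null cells were added likewise. 1 unnamed entry held 0 counts. Replicates differed by more than sampling noise in every group.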

Additional observations from a re-analysis of the deposited data

How the results depend on the processing

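Over 18 results and 250 alternatives, 238 kept their direction and their side of the threshold, or stayed within the spread or 1.5 times the count. With a prior count of 2 the log2 line difference of COL6A2 with DMSO was 7.58. With 1 library left out, the entinostat effect on COL6A2 in BRCA1+ cells ranged from −0.51 to 0.087 and its interaction from −0.025 to 0.57, the chromosome 21 neighbours called from 3 to 7, the related genes called with entinostat from 5 to 12 in BRCA1+ and from 5 to 10 in BRCA1-null cells. For the count ratios of COL6A3, chosen after seeing the data, total library sizes in place of scaled ones left each value within its interval. Same-numbered replicates deviated together over 10390 genes. Between DMSO and entinostat r was 0.719 in BRCA1+ and 0.638 in BRCA1-null cells, the pairs behind the entinostat tests, and between the lines 0.234 to 0.297. Each comparison has 2 pairs and no stated link, so the block stayed an alternative. With the replicate block, the related genes called with entinostat came to 17 for BRCA1+ (15 of them higher and 2 lower) and to 14 for BRCA1-null cells. The chromosome 2 neighbours called came to 10 (4 higher and 6 lower) and the related genes called between the lines to 23. The share of all tested genes called under the block was not computed, so these counts cannot be set beside it. The block narrowed the entinostat effect on COL6A1 in BRCA1-null cells to −0.15 ± 0.05 (adjusted p = 0.0575), lower in both same-numbered pairs, and no effect on COL6A1 or COL6A2 crossed the threshold. The cause was not tested. Counts of 0 to 10 limit COL6A3: no fold was given for entinostat in BRCA1+ cells or for the interaction.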
